A study of Rattus norvegicus with 20 samples.

Results

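The 16 rat mammary carcinomas of the series were divided by their input DNA into 10 that carried long shifts of input signal along a chromosome and 6 that did not, out of 20 arrays in all. The 10 carcinomas with long shifts were carcinomas 3, 4, 5, 7, 8, 9, 11, 14, 15 and 16, and the 6 without were carcinomas 1, 2, 6, 10, 12 and 13. They were chosen by the Cy3 channel alone. A carcinoma belonged to the first side when at least 3 neighbouring windows of 5 megabases each had a mean log2 Cy3 signal more than 0.25 away from the mean of the normal glands, in one direction. Such a stretch is called a run here. The input values therefore chose the sides and are given as a description, while the tests concern the enriched DNA and its ratio to input.

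All tissues came from female rats of an F1 cross between the Sprague-Dawley and Copenhagen strains. The 16 tumours are labelled as mammary carcinomas induced by radiation, and the 4 normal samples as mammary gland. The treatment text names whole-body gamma rays from 137Cs given at 7 weeks of age, to a dose of 4 Gy at a rate of 0.5 Gy per minute, and also untreated rats; which of them gave the normal glands is not stated. On each array the Cy5 channel held DNA enriched by binding to a methyl-CpG-binding domain, and the Cy3 channel held input DNA from the same sample. Sample numbers do not name animals, so the p-values measure the spread between samples. The arrays give probe positions on build rn4 and no gene names, so the tissue could not be set against marker genes, and regions are named by position.

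CpG islands are short stretches dense in CpG dinucleotides, often at gene starts, and most of them lack methylation in normal tissue. On the inactive X chromosome of females, by contrast, many islands are methylated, and tumours often gain methylation at islands of the autosomes. A methyl-CpG-binding domain captures DNA in proportion to its methylated CpGs, so that a high ratio of Cy5 to Cy3 marks a methylated island. Input DNA is not selected for methylation, and on genomic arrays its signal follows the amount of each stretch of DNA in the sample. A tissue sample mixes cells, so a deep shift in some of the cells and a shallow shift in all of them cannot be told apart.

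The 91599 probes used gave 13556 regions, each made of 3 or more neighbouring probes; the median region had 6 probes over 579 bases. Median raw Cy3 signals ran from 73.0 to 129 units in carcinomas with runs and from 86.0 to 107 in those without, and median raw Cy5 signals from 68.0 to 128.5 and from 63.0 to 102.5. The arrays were scanned on 3 days. Scan day 1 held only carcinomas without runs (1 and 2), scan day 2 only carcinomas with runs among its tumours (4, 5, 11, 14, 15 and 16), and scan day 3 held 4 of each side. Side and day can therefore be told apart on scan day 3 alone. Carcinomas 7 and 8 carry one code in their description and another in their scanner file. Leaving out both changed no call.

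The input profiles held 38 runs, 34 with lower and 4 with higher Cy3 signal than the normal glands. Lower runs lay in all 10 carcinomas of that side and on 14 chromosomes. The 4 higher runs lay in 3 carcinomas. None of the 4 normal glands, each set against the other 3, had a run. The runs covered between 15 and 175 megabases, with a median of 45.0, and 6 of the lower runs were at least 100 megabases long. The length in runs differed widely between carcinomas. It was 530 megabases in carcinoma 3, 465 in carcinoma 8, 325 in carcinoma 15, 320 in carcinoma 16 and 275 in carcinoma 11. It was 100 megabases in carcinoma 14, 70 in carcinoma 7, 60 in carcinoma 9 and 20 each in carcinomas 4 and 5. The side is thus a mixture of 5 tumours with runs on at least 3 chromosomes and 5 with runs on 1 or 2.

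**Figure D1:**
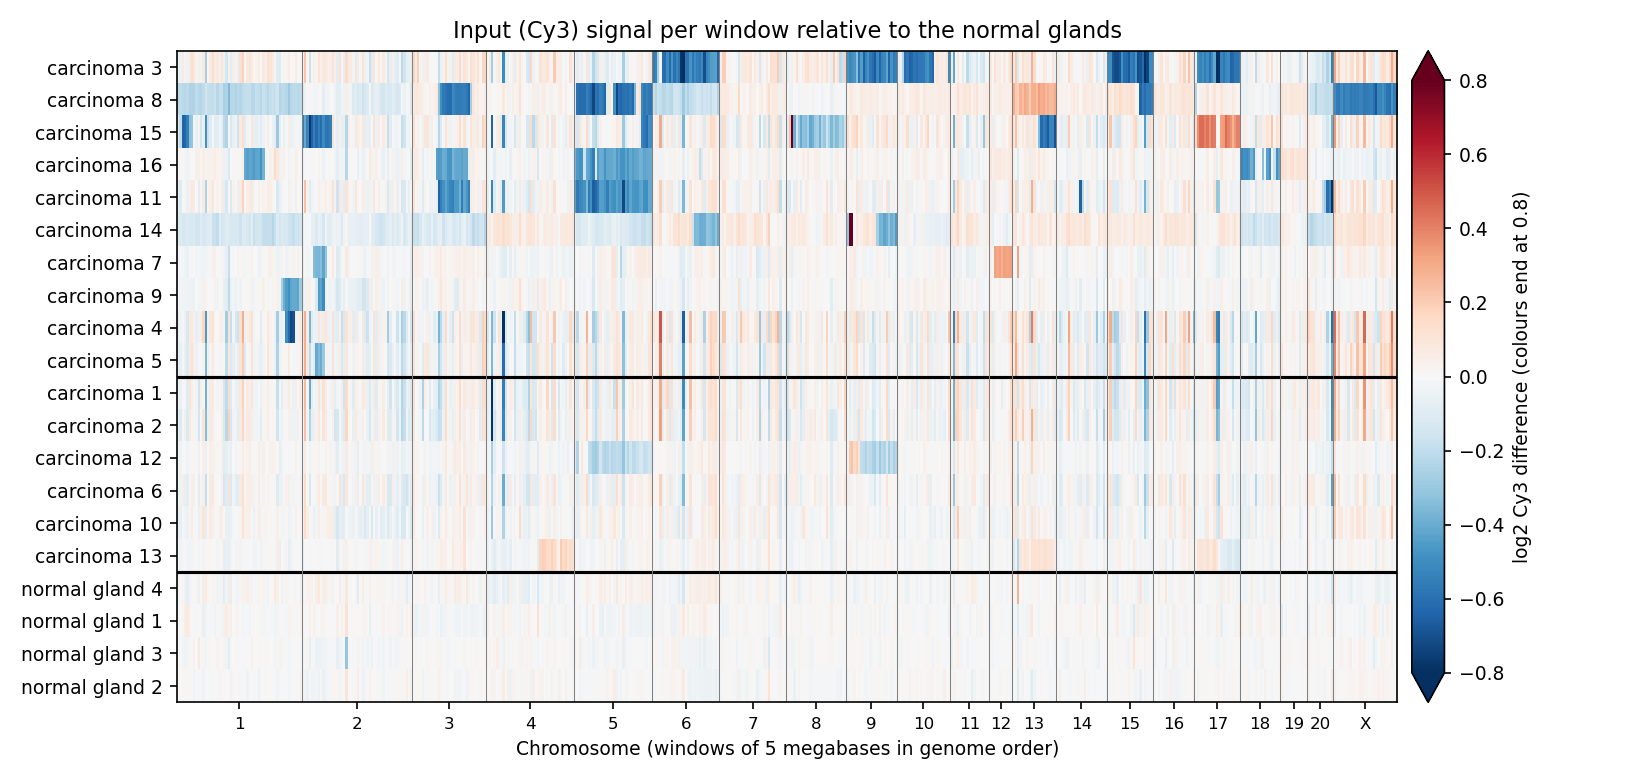
Mean log2 Cy3 input signal in 529 windows of 5 megabases (columns, by chromosome) relative to the normal glands, for each array (rows). The upper block holds the 10 carcinomas with runs, the middle block the 6 without and the lower block the 4 normal glands, and blue is lower and red higher input. Long blue blocks such as chromosome 5 in carcinomas 8, 11 and 16 and X in carcinoma 8 stand beside shallower ones in carcinoma 12.

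The longest run of each carcinoma differed in place. Carcinoma 11 was lower over the whole of chromosome 5, from 1 to 175000000, by a mean of -0.49 on the log2 scale, window ends being rounded to the next 5 megabases. Carcinoma 8 was lower over the whole of X, from 1 to 165000000, by -0.55. Carcinoma 3 was lower on chromosome 6 from 20000001 to 150000000 by -0.57, and carcinoma 16 on chromosome 5 from 50000001 to 175000000 by -0.42. These 4 stretches took up most or all of a chromosome. Shorter ones were the longest elsewhere. Carcinoma 15 was lower on chromosome 2 from 1 to 65000000 by -0.57, carcinoma 14 on chromosome 6 from 95000001 to 150000000 by -0.36, and carcinoma 9 on chromosome 1 from 225000001 to 270000000 by -0.39. In carcinoma 4 the only run lay on chromosome 1 from 235000001 to 255000000, at -0.64. In carcinoma 5 it lay on chromosome 2 from 30000001 to 50000000, at -0.36. Carcinoma 7 alone had a higher run as its longest, on chromosome 12 from 10000001 to 50000000, at 0.32.

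No window lay in a higher run of more than 1 carcinoma. Besides chromosome 12 in carcinoma 7, they lay on chromosome 13 from 75000001 to 115000000 in carcinoma 8 (0.29) and on chromosome 17 in carcinoma 15, from 5000001 to 45000000 (0.41) and from 55000001 to 100000000 (0.37). In carcinoma 15 the same part of chromosome 13 was lower, at -0.56, and in carcinoma 3 chromosome 17 was lower from 5000001 to 100000000, at -0.57. The same stretch could thus be high in one tumour and low in another.

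Of the 529 windows, 259 (49.0%) lay in a run of at least 1 carcinoma. Lower runs covered 167 windows in 1 carcinoma, 41 in 2, and 43 in 3 or more, with at most 4 carcinomas at any window. The recurrent windows were on chromosomes 2, 3 and 5. The end of chromosome 5, from 150000001 to 175000000, lay in runs of carcinomas 8, 11, 15 and 16, with means between -0.55 and -0.40, while the 6 carcinomas without runs lay there between -0.17 and 0.05. Further intervals of chromosome 5, from 5000001 to 20000000, 25000001 to 45000000, 50000001 to 70000000 and 85000001 to 140000000, were lower in carcinomas 8, 11 and 16. The same 3 carcinomas were lower over chromosome 3 from 60000001 to 135000000, between -0.54 and -0.42. A stretch of chromosome 2 from 35000001 to 50000000 lay in runs of carcinomas 5, 7, 9 and 15, between -0.56 and -0.35, and its neighbour from 30000001 to 35000000 in carcinomas 5, 7 and 15. No carcinoma had runs in both the chromosome 2 and the chromosome 3 interval.

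The threshold separated the sides by little at its edge. Taking in each carcinoma the 3 neighbouring windows whose smallest shift was largest, that smallest shift was 0.24 in carcinoma 12, 0.17 in carcinoma 13, 0.16 in carcinoma 1, 0.13 in carcinoma 2, 0.10 in carcinoma 6 and 0.07 in carcinoma 10. Just inside the threshold stood carcinoma 7 with 0.34, carcinoma 5 with 0.35 and carcinoma 14 with 0.39. A threshold of 0.20 would have added carcinoma 12, and runs of 2 windows carcinomas 1, 2 and 12. A threshold of 0.30, or runs of 4 windows, left the sides as they were.

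The side without runs was not free of long input shifts. With a shallower rule, chosen after the profiles had been seen (at least 5 neighbouring windows beyond 0.1), 6 stretches appeared in 2 of its carcinomas. In carcinoma 12, chromosome 5 from 30000001 to 175000000 averaged -0.20 and chromosome 9 from 35000001 to 115000000 averaged -0.23, while chromosome 9 from 5000001 to 35000000 averaged 0.18. In carcinoma 13, chromosome 4 was higher from 115000001 to 150000000 (0.17) and from 160000001 to 190000000 (0.15), and chromosome 13 from 75000001 to 105000000 (0.12). Carcinoma 12 thus shared the direction of chromosome 5 with carcinomas 8, 11 and 16 at a smaller depth, and carcinoma 13 that of chromosome 13 with carcinoma 8. The other 4 carcinomas of this side had no such stretch, but single windows of them were shifted. In carcinomas 1 and 2, 3.59% and 3.02% of windows passed the threshold that defined a run, with lowest windows of -0.89 and -0.78. The share was 1.32% in carcinoma 6 and 0.189% in carcinoma 10. With runs it was 2.84% in carcinoma 7 and 2.27% in carcinoma 9, the lowest of that side. The medians were 10.3% with runs and 1.51% without. Whole-chromosome means of Cy3 lay more than 0.1 from the normal glands in 33 instances in 8 of the 10 carcinomas with runs, 28 lower and 5 higher. They did so in 2 instances in 1 of the 6 without, chromosomes 5 (-0.18) and 9 (-0.13) of carcinoma 12. In the normal glands these means stayed between -0.03 and 0.03.

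Some arrays also shared a fine pattern of single windows. Over the 270 windows in no run, the Cy3 profiles of carcinomas 1 and 2, which lay on the same slide, correlated with r = 0.94, and those of carcinomas 4 and 5, also on the same slide, with r = 0.88. The highest correlation between slides, 0.88, joined carcinoma 2 without runs to carcinoma 4 with one. The likeness thus crossed the sides. The windows share probes and array design, so these values are a description. The part of this pattern in the runs was not tested.

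The first question was whether the enriched DNA moved with the input inside the runs. It did, in each of the 10 carcinomas. For each tumour the mean log2 Cy5 signal inside its lower runs was set against the probes outside its runs, both relative to the carcinomas without runs. The difference was -0.40 in carcinoma 3, -0.46 in carcinoma 4, -0.31 in carcinoma 5, -0.26 in carcinoma 7 and -0.31 in carcinoma 8. It was -0.32 in carcinoma 9, -0.41 in carcinoma 11, -0.28 in carcinoma 14, and -0.37 in both carcinoma 15 and carcinoma 16. All 10 values lay below 0. The mean was -0.35 ± 0.06 (SD, n = 10; two-sided exact sign-flip permutation test, p = 0.00195, the smallest this design can give). The 6 carcinomas of scan day 2 averaged -0.37 (exact sign-flip permutation p = 0.0312). The 4 of scan day 3 averaged -0.32 (exact sign-flip permutation p = 0.125). Each p is the smallest its day can give. Cy3 and Cy5 were read from the same spots, so the channels share what a spot does.

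The same held run by run. Cy5 was lower in all 34 lower runs, from -0.50 on chromosome 20 of carcinoma 11 to -0.16 on chromosome 15 of carcinoma 8, and higher in all 4 higher runs, from 0.12 on chromosome 13 of carcinoma 8 to 0.46 on both runs of chromosome 17 of carcinoma 15. For the lower runs the median was -0.37 in Cy5 and -0.49 in Cy3. Cy3 thus stood lower than Cy5, and the ratio of Cy5 to Cy3 inside the run was above that outside in 33 of 34 lower runs, by a median of 0.14. The exception was the run on chromosome 20 of carcinoma 11, at -0.02. Since Cy3 chose the runs, the ratio in them is a description.

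**Figure D2:**
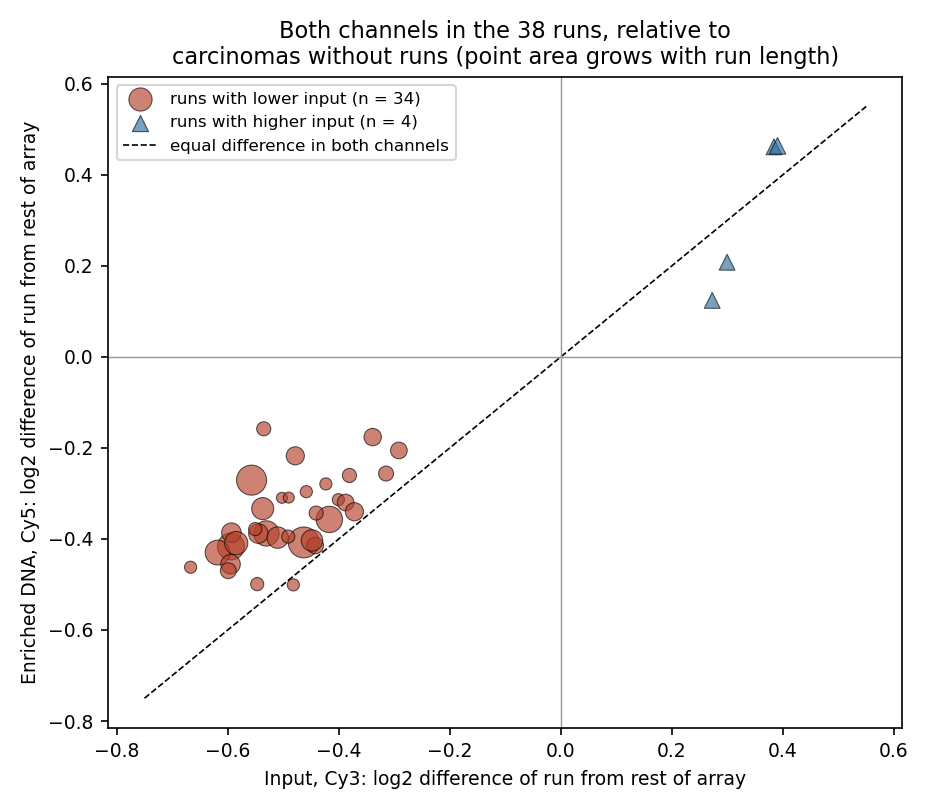
Log2 difference of each of the 38 runs from the rest of its array in Cy3 input (horizontal) and in Cy5 enriched DNA (vertical), relative to the carcinomas without runs. Circles are runs with lower and triangles runs with higher input, the point area grows with the length of the run, and the dashed line marks equal differences. All 34 circles lie below 0 in Cy5, and 33 of them lie above the dashed line.

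How closely Cy5 followed Cy3 was also described by the level of the island in the normal glands. Each region was placed between the low mode (0) and the high mode (1) of its own array on the linear scale, called its linear position. There were 11026 regions that lay under 0.2 in all 4 normal glands, called low islands, and 1464 that lay over 0.5 in all 4, called high islands. In the low islands of the lower autosomal runs, Cy5 averaged -0.34 ± 0.07 and Cy3 -0.46 ± 0.11 (SD, n = 10 carcinomas) against islands of the same kind in no run. In the high islands, Cy5 averaged -0.53 ± 0.14 and Cy3 -0.47 ± 0.11 (SD, n = 10). The ratio was above 0 in 10 of 10 carcinomas in the low islands, by 0.12 ± 0.08 (SD), and below 0 in 10 of 10 in the high islands, by -0.06 ± 0.05 (SD). Cy5 was lower in the high than in the low islands in 9 of 10 carcinomas, carcinoma 9 being the exception. This split was chosen after the data had been seen and was not tested, and the high islands in runs numbered from 3 in carcinoma 5 to 178 in carcinoma 3. Cy5 is dim in unmethylated regions, so signal level and methylation state cannot be told apart here.

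**Figure D3:**
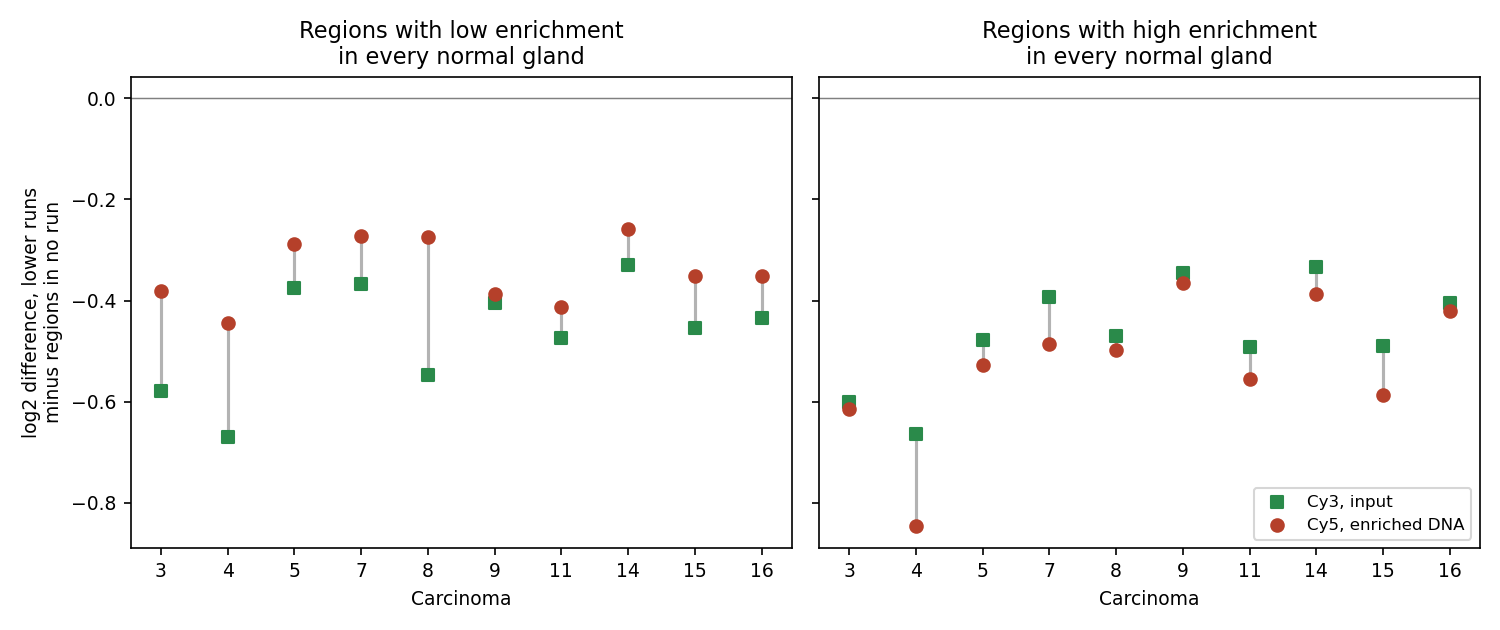
Log2 difference of Cy3 input (squares) and Cy5 enriched DNA (circles) between the lower autosomal runs of each of the 10 carcinomas and regions in no run, for regions with a linear position under 0.2 (left) or over 0.5 (right) in every normal gland. Cy5 lies above Cy3 in every carcinoma on the left, with a mean of -0.34 against -0.46, and below it in every carcinoma on the right, with -0.53 against -0.47.

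Over whole arrays the channels were tied more loosely. Across 501 autosomal windows the correlation of Cy3 with Cy5, both relative to the other carcinomas without runs, ran from 0.15 in carcinoma 7 to 0.73 in carcinoma 11 among tumours with runs. Among those without, the highest was 0.35 in carcinoma 12. Windows of an array share its spots and base composition, so these are descriptions.

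At the recurrent intervals the Cy5 values of carcinomas with the run could be set against all other carcinomas. On chromosome 5 from 150000001 to 175000000, Cy5 was -0.38 in carcinoma 8, -0.45 in carcinoma 11, -0.51 in carcinoma 15 and -0.40 in carcinoma 16, and between -0.17 and 0.08 in the other 12. On chromosome 3 from 60000001 to 135000000 it was -0.40 in carcinomas 8 and 11 and -0.41 in carcinoma 16, and between -0.08 and 0.13 in the other 13. On chromosome 2 from 35000001 to 50000000 it was -0.33 in carcinoma 5, -0.29 in carcinoma 7, -0.32 in carcinoma 9 and -0.48 in carcinoma 15, and between -0.12 and 0.15 in the other 12. In these 3 intervals the tumours with the run did not overlap the rest. Nor did they on chromosome 5 from 5000001 to 20000000 and from 50000001 to 70000000. In the chromosome 2 interval from 30000001 to 35000000 and in 2 of the other chromosome 5 intervals, from 25000001 and from 85000001, they overlapped.

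The highest single windows, named because they were the highest, showed the same. On chromosome 8 from 10000001 to 15000000, carcinoma 15 stood 1.61 above the rest of its array in Cy3 and 1.45 in Cy5, while the other 15 carcinomas lay between -0.17 and 0.14 in Cy5. On chromosome 9 from 5000001 to 10000000, carcinoma 14 stood 1.33 higher in Cy3 and 1.05 higher in Cy5. In both windows the ratio was lower, by -0.16 and -0.29. The shallow stretches of carcinoma 12 carried Cy5 along as well, with -0.26 on chromosome 5 and -0.26 on chromosome 9, against -0.21 and -0.23 in Cy3.

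The main comparison asked whether island methylation, as the log2 ratio of Cy5 to Cy3, differed between carcinomas with and without runs. No region was called. With limma and Benjamini-Hochberg adjustment over 13556 regions, 0 regions were higher and 0 were lower at an adjusted p under 0.05 (0% called), and the smallest adjusted p was 0.999. Were no region to differ, a fraction of 0.05 would on average have an unadjusted p under 0.05. There were 242 regions with such a p (1.79% of those tested), 109 higher and 133 lower in carcinomas with runs. That share moved with single tumours: it was 0.944% without carcinoma 1, 1.18% without carcinoma 6, 2.71% without carcinoma 4, 2.88% without carcinoma 8, 3.22% without carcinoma 13 and 11.4% without carcinoma 10, with 0 regions called by limma each time. The differences were small. Their 1st and 99th percentiles were -0.52 and 0.43 on the log2 scale, with a median standard error of 0.16, and 6 regions differed by more than 1. In data simulated with these spreads, the same fit recovered 36% of regions changed by 0.5, 90% of those changed by 1 and 100% of those changed by 2 (50 each). The simulated regions varied independently, with the same spread on both sides, so recovery in the real arrays may differ. Under these settings most changes of 0.5 in single regions were missed.

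The regions inside and outside the runs were also counted apart, within the same fit. Of all regions, 6262 (46.2%) lay in a run of some carcinoma, and 126 of these (2.01%) had an unadjusted p under 0.05. Of the 7294 outside every run, 116 (1.59%) had an unadjusted p under 0.05. As that fit called 0 regions in all, the count of 0 called outside the runs (0%) follows from it and is no separate test. In linear position, which takes the range of each array out of the ratio, limma called 0 of 13556 regions (smallest adjusted p = 0.932), and 482 (3.56%) had an unadjusted p under 0.05, 333 higher and 149 lower. The latter share was 1.88% without carcinoma 1, 1.84% without carcinoma 2 and 5.50% without carcinoma 4. Among islands over 0.5 in every normal gland the median difference was -0.30 in log2 ratio and 0.0086 in linear position, so the direction depended on the scale. Among those under 0.2 it was 0.00 in log2 ratio and 0.0049 in linear position.

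The regions nearest to a difference are given as values. A region of 8 probes on chromosome 3 from 106407505 to 106408351 had the smallest unadjusted p. Its log2 ratio was -0.52 at the lowest, -0.04 in the median and 0.14 at the highest in the 10 carcinomas with runs. In the 6 without it was 0.16, 0.41 and 1.26, and in the 4 normal glands between -0.93 and -0.40. The sides did not overlap. The difference was -0.70 (SE 0.17, limma unadjusted p = 0.000583, adjusted p = 0.999), -0.87 within scan day 3, and -0.09 after normexp background correction. The region lies in the recurrent lower interval of chromosome 3. Among the carcinomas with the run there, 16 and 8 were the lowest of all, at -0.52 and -0.42, and 11 stood at 0.05. The 7 carcinomas with no run there stood below all 6 as well. The part of the input in this difference was not tested. In linear position the region stayed low on both sides, at a mean of 0.0401 and 0.112, and no carcinoma passed 0.5.

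A region of 6 probes on chromosome 19 from 11268430 to 11269101 was the only other one of 13556 (0.0148% for both) in which the sides did not overlap. Its log2 ratio was -0.58, -0.23 and -0.06 at the lowest, median and highest in carcinomas with runs, and -0.02, 0.07 and 0.58 in those without. The difference was -0.45 (SE 0.12, limma unadjusted p = 0.00125, adjusted p = 0.999). It lay in no run. On chromosome 5 from 167281719 to 167282256, log2 ratios ran from 2.44 to 3.42 in normal glands. Carcinomas with runs stood between 1.07 and 1.91 and those without between 1.72 and 2.46, a difference of -0.58 (SE 0.16). In linear position, by contrast, the mean was 0.304 in normal glands, 0.435 with runs and 0.549 without (limma unadjusted p = 0.196 between the sides). On that scale 3 carcinomas with runs, 4 without and 0 normal glands were over 0.5. At all 8 probes the region's Cy5 signal was well above background on some array of each group. The 2 remaining regions on the lower side lay on chromosome 2 from 20158404 to 20158976, with -0.64 (SE 0.17), and on chromosome 7 from 10720815 to 10721264, with -0.81 (SE 0.22). In the first of these, 2 of 4 probes had Cy5 well above background on any array with runs. The regions on chromosomes 2 and 5 lay in an input run of some carcinoma, and the one on chromosome 7 in none.

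On the other side, the smallest unadjusted p belonged to a region of 3 probes on chromosome 11 from 72262559 to 72262625. It ranged from -1.20 to -0.38 in carcinomas with runs, from -2.11 to -0.90 in those without and from -2.01 to -0.90 in normal glands, a difference of 0.64 (SE 0.19, limma unadjusted p = 0.00375, adjusted p = 0.999). The sides overlapped. The others were on chromosome 1 from 158342350 to 158342760 with 0.46 (SE 0.14), on chromosome 17 from 16322391 to 16322965 with 0.50 (SE 0.15), on chromosome 5 from 25031435 to 25032906 with 0.36 (SE 0.11), and on chromosome 6 from 128839032 to 128839296 with 0.35 (SE 0.11). In each of these 5 both means of linear position were under 0.2, and no array of any group passed 0.5. After normexp background correction the 5 differences lay between 0.04 and 0.17. The region on chromosome 11 lay in no input run, while those on chromosomes 1, 17, 5 and 6 lay in a run of some carcinoma. Cy3 chose the runs and enters the ratio.

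**Figure D4:**
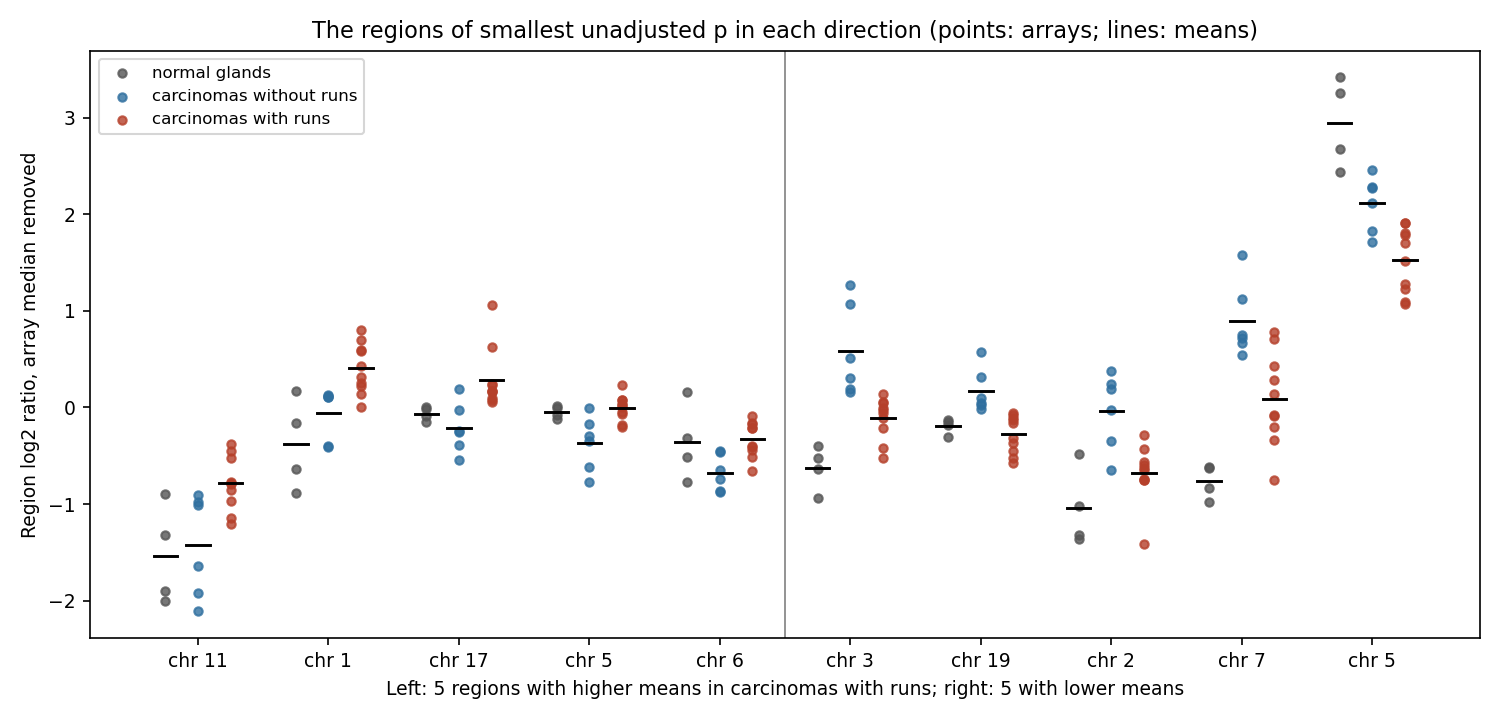
Region log2 ratio, array median removed, in the 5 regions of smallest unadjusted p with higher means in carcinomas with runs (left) and the 5 with lower means (right). Points are arrays, coloured by group, and lines are group means. The carcinoma sides overlap in 8 of the 10 regions, and not in the regions of chromosomes 3 and 19 on the right.

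Islands gained in carcinomas were compared as numbers per tumour. A gained island was under 0.2 in linear position in every normal gland and over 0.5 in the carcinoma. The share of the 11026 low islands that were gained was 0.608%, 3.44% and 10.9% at the lowest, median and highest in the 10 carcinomas with runs, and 0.118%, 2.05% and 6.48% in the 6 without. The sides overlapped over most of their range. The means were 4.70% ± 3.67 (SD, n = 10) and 2.41% ± 2.20 (SD, n = 6), a difference of 2.29 percentage points (SE 1.47; exact permutation test, two-sided, with 8008 splits: p = 0.190, adjusted p = 0.374 over 7 values). The carcinomas with the highest shares were 15, 8 and 11 with runs (10.9%, 9.67% and 7.94%) and 6 without (6.48%). Carcinoma 3, which had the most megabases in runs, had the lowest share of its side, 0.608%. The rest of that side mostly went the other way. Carcinomas 8, 15, 16 and 11, with 465, 325, 320 and 275 megabases in runs, had shares of 9.67%, 10.9%, 5.51% and 7.94%. Carcinomas 14, 7, 9, 5 and 4, with 100, 70, 60, 20 and 20 megabases, had 3.51%, 2.81%, 1.58%, 3.36% and 1.11%. A link between length in runs and gained share was not tested. With 4 carcinomas a side on scan day 3, the shares differed by 0.349 points (exact permutation p = 0.857). The shares depended on normalization, with low islands defined anew each time. After loess the means were 1.69% and 0.886%, a difference of 0.806 points. After quantile normalization they were 1.18% and 0.494%, a difference of 0.683 points. The difference was 2.21 points after scaling by the median absolute deviation and 1.33 after normexp background correction.

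Most gained islands of the smaller side recurred on the other. Of the low islands, 1685 were gained in at least 1 carcinoma with runs and 841 in at least 1 without, and 787 in both, which is 46.7% of the former and 93.6% of the latter; the sides differ in number of tumours. In 187 islands at least 5 carcinomas with runs and at least 3 without were over 0.5, and 0 islands were gained in all 16 tumours. The other 9287 low islands were gained in none. The largest differences in number are given without a test. On chromosome 5 from 3954639 to 3955182, 8 of 10 carcinomas with runs and 1 of 6 without were over 0.5, and the mean position was 0.624 ± 0.215 (SD, n = 10) against 0.405 ± 0.312 (SD, n = 6). On chromosome 13 from 86764708 to 86765708 the counts were also 8 and 1. In 3 further regions, on chromosome 1 from 30361072 to 30361340, chromosome 17 from 92895425 to 92896277 and chromosome 18 from 28268755 to 28271733, the counts were 6 and 0. All 5 lay in an input run of some carcinoma, against 46.2% of all regions. They had limma unadjusted p-values of at least 0.255 in log2 ratio, and on chromosome 13 the log2 difference was -0.01.

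The gains did not follow the runs in one direction. Within a carcinoma's own lower runs the gained share of low islands ran from 0.530% to 11.0% with a median of 3.41%, and outside its runs from 0.612% to 10.8% with a median of 3.45%. It was higher inside in 4 carcinomas and lower in 6. Some of these directions rested on little, with 1 of 145 islands gained inside in carcinoma 4 and 2 of 63 in carcinoma 5. In carcinoma 8 the shares were 9.84% inside and 9.70% outside, and in carcinoma 3 they were 0.530% and 0.612%. In carcinoma 7 it was 7.89% of 114 islands inside against 2.76% outside, but the carcinomas without runs had a mean of 5.41% at those 114 islands. In carcinoma 9 it was 3.65% of 274 inside against 1.53% outside, where the carcinomas without runs had means of 3.47% and 2.38%. In carcinoma 16 it was 2.92% of 1440 inside against 5.90% outside, where the carcinomas without runs had means of 2.37% and 2.41%. In carcinoma 15 the higher runs of chromosome 17 had gains in 17% of 324 islands, against 10.8% outside its runs. In the higher runs of the other 2 carcinomas the share was lower than outside. It was 2.52% of 317 islands against 2.76% in carcinoma 7, and 6.92% of 159 against 9.70% in carcinoma 8. The carcinomas without runs also had lower means at the islands of these higher runs than outside. Those means were 1.31% against 2.41% for carcinoma 7, 1.57% against 2.375% for carcinoma 8 and 1.75% against 2.40% for carcinoma 15. These shares are descriptions, as Cy3 enters the ratio and chose the runs.

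Losses were rare on both sides. Of the 1464 islands over 0.5 in every normal gland, between 0% and 1.64% were under 0.2 in carcinomas with runs (median 0.444%) and between 0.137% and 0.820% in those without (median 0.307%). The highest values were in carcinomas 4 (1.64%) and 3 (1.5%). The difference in means was 0.182 points (SE 0.209, exact permutation p = 0.511, adjusted p = 0.511); it was 0.0645 points without carcinoma 4 and 0.0797 points without carcinoma 3. The share of all regions over 0.5 was 19.2% ± 3.98 (SD, n = 10) with runs, 17% ± 2.71 (SD, n = 6) without and 12.2% ± 0.633 (SD, n = 4) in normal glands. The carcinoma sides differed by 2.24 points (SE 1.67, exact permutation p = 0.243, adjusted p = 0.374), and within scan day 3 by -0.301 points (exact permutation p = 0.943).

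The height of the methylated group of islands was also measured on each array, as the mode of the 15% of regions with the highest log2 ratios. It was 2.00, 2.70 and 3.17 at the lowest, median and highest in carcinomas with runs, and 1.99, 3.06 and 3.61 in those without. The means were 2.60 ± 0.42 (SD, n = 10) and 2.91 ± 0.58 (SD, n = 6), against 4.67 ± 0.81 (SD, n = 4) in normal glands, so that both sides lay below every normal gland. The difference between the sides was -0.31 (SE 0.27, exact permutation p = 0.228, adjusted p = 0.374). It was 0.23 after normexp background correction, so its direction depended on that step. The range between low and high mode differed by -0.30 (SE 0.31, exact permutation p = 0.321, adjusted p = 0.374). Carcinoma 10, the lowest array without runs, weighed on this comparison: without it the high mode differed by -0.50 (exact permutation p = 0.04995, adjusted p = 0.176) and the range by -0.49. Carcinoma 12, the highest array without runs, moved both the other way, to -0.17 for the high mode and -0.13 for the range.

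The X chromosome, whose islands are partly methylated in females, had a mean log2 ratio of 1.94 ± 0.36 (SD, n = 10) with runs and 2.20 ± 0.49 (SD, n = 6) without, against 3.77 ± 0.75 (SD, n = 4) in normal glands. The sides overlapped, from 1.41 to 2.47 and from 1.4 to 2.79. The difference was -0.26 (SE 0.23, exact permutation p = 0.235, adjusted p = 0.374), and 0.12 after normexp background correction. Without carcinoma 10 it was -0.42 (exact permutation p = 0.0503), and without carcinoma 12 it was -0.15. Carcinoma 8, the only tumour with a run on X, had the highest X ratio of its side, 2.47. Relative to the carcinomas without runs, its Cy3 on X stood -0.56 and its Cy5 -0.27 from the rest of the array. In linear position its X regions averaged 0.624, within the range of the other carcinomas with runs, 0.553 to 0.651. By chromosome, all 21 means of the log2 ratio were lower with runs, between -0.26 on X and -0.01 on chromosome 15, and 0 of 21 differed after adjustment (0%; exact permutation, smallest adjusted p = 0.527), and 0 at an unadjusted p under 0.05; with loess there were 5 at an unadjusted p, and 5 without carcinoma 10 and 2 without carcinoma 16.

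The overall distance to normal, taken as 1 minus the Pearson correlation with the mean normal profile over regions, was 0.0659, 0.0994 and 0.160 at the lowest, median and highest with runs, and 0.0659, 0.0851 and 0.124 without. Every carcinoma of either side was farther from the mean normal profile than every normal gland, of which the farthest was at 0.0144 and which entered that mean. The sides differed by 0.0160 (SE 0.0132, exact permutation p = 0.301, adjusted p = 0.374), by 0.0106 without carcinoma 8, by 0.010 without carcinoma 15, and within scan day 3 by 0.00138 (exact permutation p = 0.971). In all 7 array-wide values the sides overlapped and the adjusted exact permutation p was at least 0.374. On scan day 3, with 70 splits, the smallest p possible was 0.0286.

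**Figure D5:**
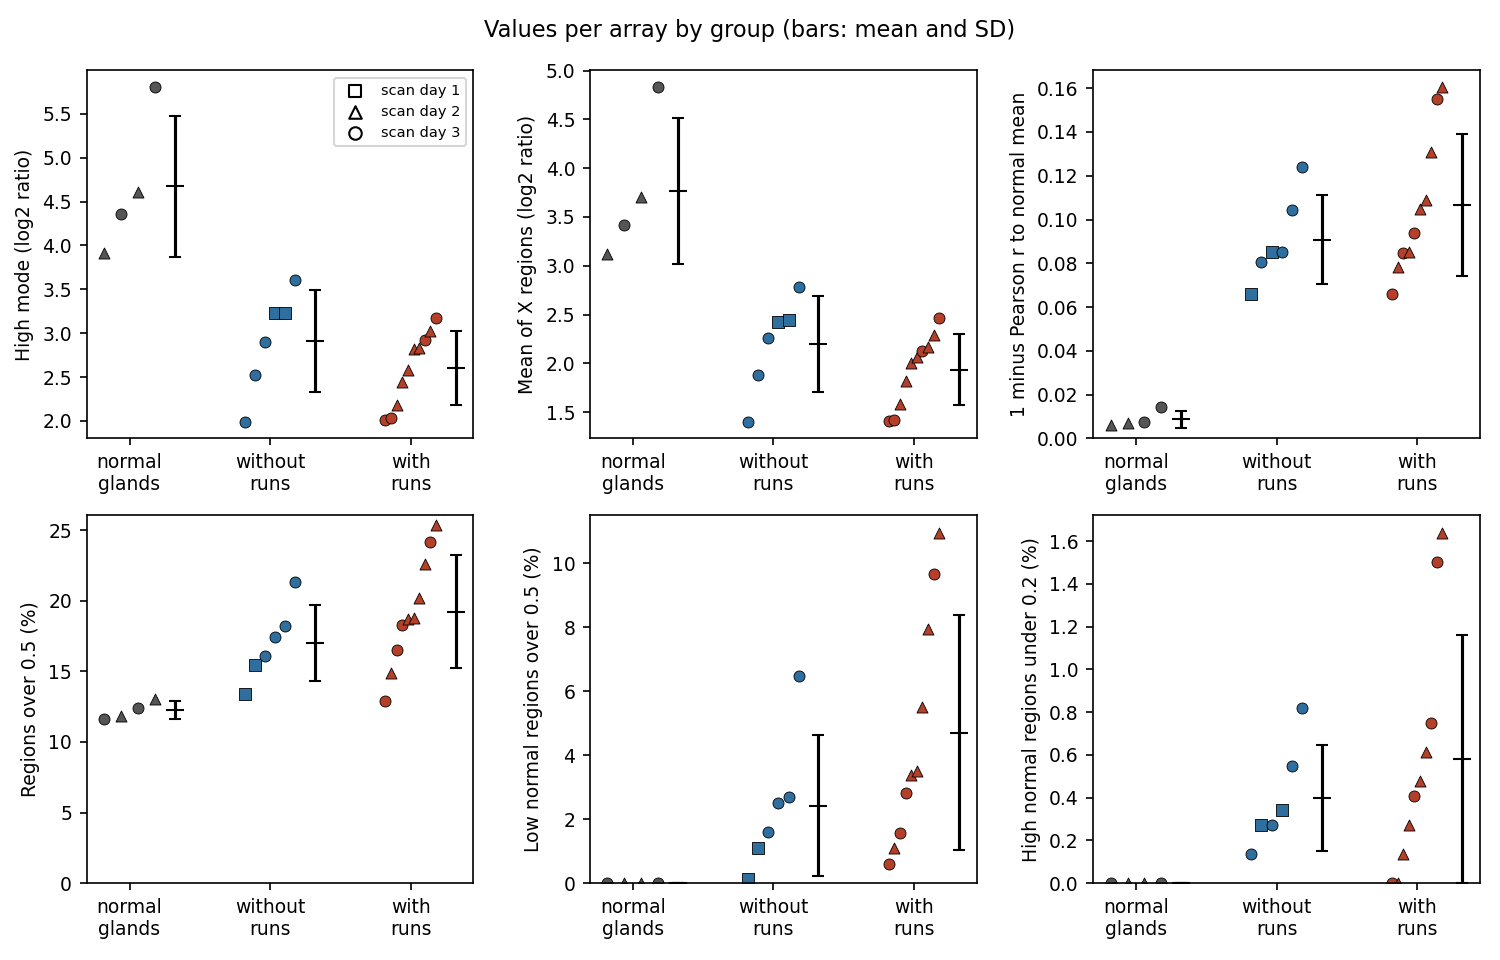
Values per array for normal glands, carcinomas without runs and carcinomas with runs: high mode and X mean of the log2 ratio, distance to the mean normal profile, and the shares of regions over 0.5, of low normal regions over 0.5 and of high normal regions under 0.2 in linear position. Points are arrays, symbols give the scan day, and bars show mean and SD. The carcinoma sides overlap in every panel, as in the gained share with 0.608% to 10.9% against 0.118% to 6.48%.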

How the data were processed

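Per the file headers, the 20 two-colour Agilent CpG island arrays were read with Feature Extraction 10.7.3.1 (also in the submitters' processing notes) with positions on build rn4. The deposited signals used here are processed intensities, background-subtracted and scaled with a linear dye factor per the file headers (lowess factor 0). The deposited scanner log ratio is a log10 value. A second deposited source, the value table of the authors, holds log2 ratios, uncentred (column medians -0.48 to -0.08), and was used as an alternative.

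Control spots and 187 flagged values were left out. A probe was used if 10 or more arrays had its Cy3 well above background (91599 probes), and log2 Cy5 over Cy3 was centred on each array's median, with no loess or quantile step, since many islands may shift one way; a shift shared by all regions is therefore not seen. Regions were runs of at least 3 probes starting at most 500 bases apart. Input windows needed 10 probes; each array's deviation from the normal glands was centred on its median over windows. Linear position was 0 at the density mode of all regions and 1 at the mode of the highest 15%, on the unlogged ratio.

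Sides were compared with limma 3.58.1 (R 4.3.3; tested on simulated data, where 5 of 13356 unchanged regions were called) and two-sided exact permutation tests, with Benjamini-Hochberg adjustment over regions, over 7 array values or over 21 chromosomes. Windows and permutations were computed with scipy 1.17.1, pandas 2.3.3 and numpy 2.4.6 under Python 3.11.15, and plots with matplotlib 3.10.9. The members, lists and tests were chosen with earlier results of these data known. Named regions were the 5 largest rises and falls past the threshold or, failing these, the 5 smallest unadjusted p-values in each direction; named runs were the longest of each carcinoma and intervals in at least 3 carcinomas; named gained islands were the 5 with the largest difference between sides. Alternatives covered normalization, background, filters, region size, threshold, array weights, batch and samples left out. Gene names, probe sequences and GC content were not analysed here. The number of arrays limits the precision.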

Additional observations from a re-analysis of the deposited data

Results flagged for a closer look

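Over 81 sets of values in groups of 4 to 10 arrays, 2 arrays stood far from their group, and chance gives such a gap in about 5% of sets. Both were carcinoma 8, whose sample code differs between description and file. Its Cy3 input on X relative to the autosomes was -0.49 against the normal glands, while the nearest other carcinoma with runs was at -0.01; this is the run over the whole of X. Its log2 ratio in the region on chromosome 2 from 20158404 to 20158976 was -1.41, with the nearest of that side at -0.75, in a region where 2 of 4 probes had Cy5 well above background on any array with runs.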

How the results depend on the processing

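The count of 0 called regions held in all 35 alternatives for the log2 ratio and in all 21 for linear position. Regions outside every run were not fitted apart, so their count of 0 follows from these. The thresholds of 0.01 and 0.1 reread the main fit, whose smallest adjusted p by limma was 0.999, and could not have changed the count. Leaving out carcinomas 12 and 13, with their shallow input shifts, blocks in linear position and the split of Cy5 by scan day were added after seeing the data; without those carcinomas 3.95% of regions had an unadjusted p under 0.05. The share at an unadjusted p under 0.05 ran from 0.944% without carcinoma 1 to 12.4% with array weights, and was 11.4% without carcinoma 10 by limma; the smallest adjusted p was 0.395 for the log2 ratio and 0.145 for linear position (without carcinomas 12 and 13). The count of 0 chromosomes held in its 22 alternatives. After normexp the differences between sides turned to 0.23 for the high mode, 0.27 for the range, 0.12 for X and -0.00336 for the distance to normal; after loess the lost share turned to -0.194 points, and within scan day 3 the share over 0.5 to -0.301 points. The cause was not tested. Leaving out 1 carcinoma at a time, the high mode differed by -0.50 to -0.17, with an exact permutation p of 0.04995 only without carcinoma 10; no array-wide value passed after adjustment. Cy5 in lower runs averaged between -0.36 and -0.34 with 1 carcinoma left out, -0.25 against the normal glands (below 0 in 10 of 10), and -0.32 within scan day 3, where 4 carcinomas cannot reach p under 0.05 (0.125). The 10 named regions kept their sign in the alternatives run on them, but not their size. After normexp background correction the differences lay between -0.25 and -0.03 in those with lower means with runs. In those with higher means they lay between 0.04 and 0.17. No paired analysis was possible because the 2 sides share no replicate number; 2 slides hold carcinomas of both sides, and slide as a random block gave 0 calls by limma (2.26% at an unadjusted p under 0.05). Few arrays per side and dim Cy5 in unmethylated regions limit what could be seen.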
